A study of Mus musculus with 8 samples.

Results

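The 30 genes described here belong to the oligodendrocyte lineage and were measured in mouse medial prefrontal cortex 6 days after a single immobilization stress. They were taken as a list and not by their values: 18 genes of mature, myelin-forming oligodendrocytes (Mbp, Mog, Mag, Mobp, Cnp, Cldn11, Mal, Ugt8a, Opalin, Ermn, Fa2h, Aspa, Trf, Car2, Cryab, Gsn, Evi2a and Apod) and 12 genes of precursor or newly committed cells and of the lineage as a whole (Pdgfra, Cspg4, Gpr17, Olig1, Olig2, Sox10, C1ql1, Matn4, Neu4, Enpp6, Bmp4 and Lhfpl3). Of the 30 members, 29 had a named probe on the Illumina bead array and 25 had a probe detected on at least 4 of the 8 arrays, 15 mature and 10 precursor genes, out of 11018 named genes tested in all. The IMO group (arrays 1 to 4) came from male mice aged 10 weeks that were immobilized for 2 h and examined 6 days later under basal conditions. The No stress group (arrays 5 to 8) came from male mice of the same age with no immobilization. Each array held RNA from 1 mm punches of both hemispheres, and no genotype or strain is given in the sources used here. Nothing says that the arrays came from different animals. The p-values therefore reflect the spread among the arrays, which may be technical.

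Oligodendrocytes wrap axons in myelin, a stack of lipid-rich membrane held together by a few abundant proteins, and in the cortex most of them lie in the deep layers and the white matter beneath. They arise from precursor cells that stay scattered through grey and white matter in the adult, divide in response to platelet-derived growth factor and pass through a short committed stage before they make myelin. The transcription factors Olig1, Olig2 and Sox10 are made at all of these stages.

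Each array detected 20012 to 21038 of its 45281 probes, with the detection limit near a log2 signal of 6.11, and 20531 probes were tested. All values are log2 signal unless a fold or percent is named. The authors deposited a second table in which the same sample names stand over other signals, and the sources used here do not settle which one belongs to the labels. The values below come from the table whose signals follow the deposited detection p-values. Arrays 1 and 6 stood apart in genes of forebrain regions beneath the cortex: 13 tested genes of such regions had a mean centred level of 0.68 on array 1 and 0.77 on array 6, against -0.46 to -0.03 on the others, and 12 cortical layer genes were at -0.18 and -0.17 there, against -0.06 to 0.11. The pair was highest in 7 of the 13. Their pair differences ran from -0.32 for Drd1, which was lowest on array 1 at 7.97, to 2.43 for Zic1 and 2.63 for Prkcd. Slc17a6 on array 1 lay within the range of the other arrays. Cortical layer genes were mixed, with pair differences from -1.39 for Cux2 to 0.80 for Nr4a2. Fezf2 (-1.07) was low on array 1 only, at 9.70, with array 6 at 11.51. The pair was highest in 2 of the 12, Nr4a2 and Bcl11b (0.73). Group comparisons are therefore given with and without this pair, which holds 1 array of each group.

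Mature oligodendrocyte genes were high on the same pair of arrays, and most of them by more than any precursor gene. In all 15 tested mature members the signals of arrays 1 and 6 lay above the signals of the other 6 arrays, an order found in 7.57% of all tested probes. The mean of the pair exceeded the mean of the other 6 arrays by 0.51 (Cryab) to 1.85 (Mobp), with a median of 1.32, where the median of all tested probes was -0.01. The pair had been singled out with values of these data known, so this is a description and no test was made. Because the punches are bulk tissue, fewer cells of a type and less RNA per cell cannot be told apart.

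Among the structural proteins of myelin, Mbp joins the inner faces of the membrane. Its signals were 13.61, 12.003, 12.35 and 12.19 on IMO arrays 1 to 4 and 12.50, 13.70, 12.68 and 12.25 on No stress arrays 5 to 8. Each group thus held a single high array, about 2.5-fold above the rest on average, and the remaining 6 arrays overlapped between groups. Mobp, a small basic protein of compact myelin, read 11.18, 9.04, 9.35 and 9.18 in the IMO group and 9.36, 11.05, 9.61 and 9.05 in the No stress group. Its pair mean was 3.61-fold that of the other arrays, the widest gap among the brightest probes of the members; dimmer probes of Mbp and Mobp reached 4.22-fold and 4.03-fold. Mal, a proteolipid that sorts cargo to the myelin membrane, read 9.91, 8.08, 8.37 and 8.31 against 8.82, 10.19, 9.0 and 8.56. Outside arrays 1 and 6 each of its 3 IMO values lay below each of its 3 No stress values. Cnp, an enzyme that keeps cytoplasmic channels in myelin open, and Cldn11, the tight junction protein of the sheath, followed the same order with pair means 2.09-fold and 2.46-fold those of the other arrays.

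The surface proteins behaved alike. Mog, an immunoglobulin protein on the outer face of the sheath, read 8.79, 7.04, 7.42 and 7.02 on IMO arrays and 7.40, 9.20, 7.78 and 7.35 on No stress arrays. Mag, an adhesion protein at the axon side, read 10.71, 8.55, 9.23 and 8.60 against 9.36, 10.59, 9.39 and 9.23. In both genes arrays 2 and 4, which are IMO arrays, gave the lowest signals. Opalin, a sialylated membrane protein of late oligodendrocytes, read 8.85, 7.48, 7.73 and 7.83 against 7.93, 9.50, 8.47 and 7.85. Its 3 remaining IMO values again lay below its 3 remaining No stress values, narrowly so for array 4 at 7.83 and array 8 at 7.85.

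Enzymes of myelin lipids and metabolites covered a wider range. Fa2h, which hydroxylates the fatty acids of myelin lipids, and Ugt8a, which makes galactosylceramide from them, had pair means 3.00-fold and 2.63-fold those of the other arrays. Car2, a carbonic anhydrase also made outside oligodendrocytes, had one 1.74-fold as high. Aspa, which splits N-acetylaspartate, was near the detection limit (5.69 to 6.66, detected on 4 arrays), which compresses its differences. Of the carriers and chaperones, Trf, the iron carrier transferrin, was the most even mature gene outside the pair: its other 6 signals lay between 9.0 and 9.23, with arrays 1 and 6 at 10.86 and 10.65. Cryab, a small heat shock protein that astrocytes also make, had the lowest pair gap of the mature genes at 1.43-fold. Evi2a, a membrane protein of mature oligodendrocytes, read 7.70 to 8.07 on the 6 other arrays and 9.03 and 9.21 on the pair.

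**Figure D1:**
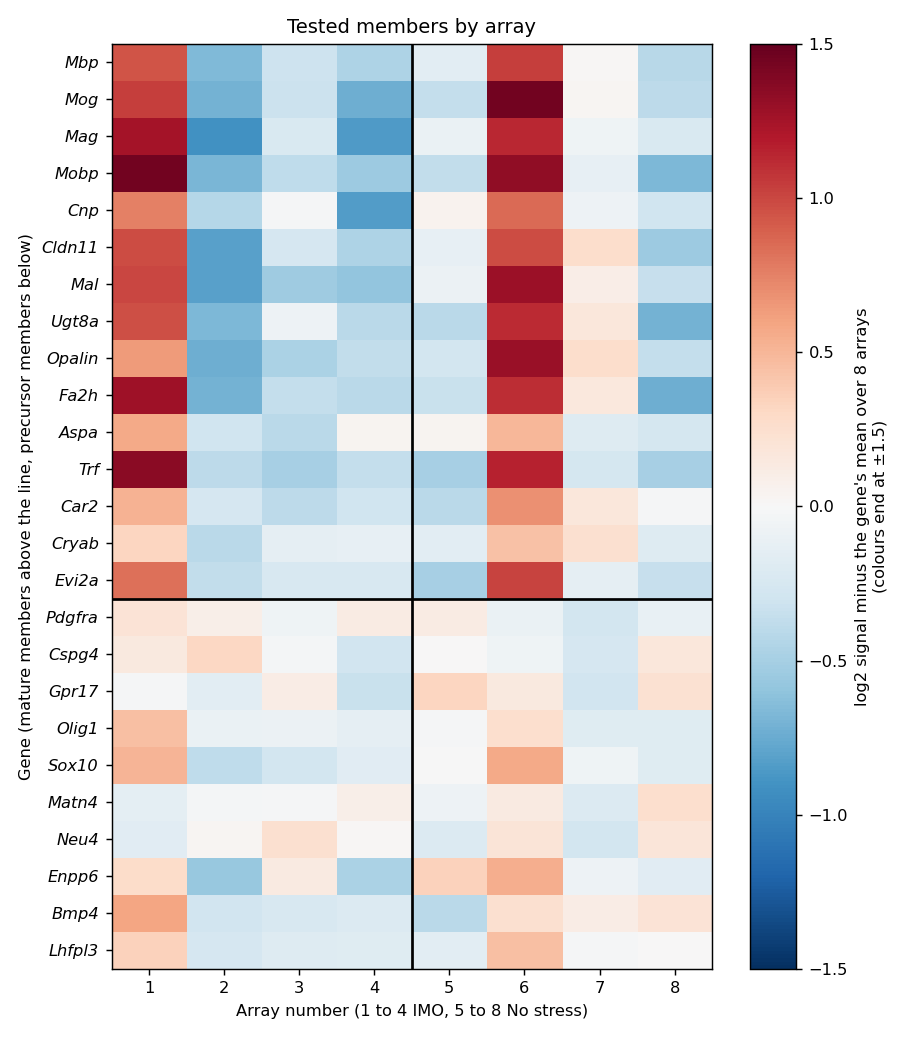
Log2 signal of the 25 tested members on each of the 8 arrays, centred on each gene's own mean (colour scale from -1.5 to 1.5, red higher), with 15 mature genes above the horizontal line and 10 precursor genes below it; IMO arrays are left of the vertical line and No stress arrays right of it. Arrays 1 and 6 are the red columns in every mature gene, while Pdgfra, Cspg4, Gpr17, Matn4 and Neu4 show no such columns.

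Most precursor genes did not share this order. Pdgfra, the growth factor receptor that defines oligodendrocyte precursors and that meningeal fibroblasts also carry, read 10.06, 9.94, 9.79 and 9.98 on IMO arrays and 9.98, 9.76, 9.58 and 9.75 on No stress arrays. Array 1 was its highest array, but array 6 was within the range of the others, and the pair exceeded the other 6 arrays by 0.07. Cspg4, the NG2 proteoglycan of precursors and pericytes, and Matn4, an extracellular matrix protein, had pair differences of 0.06 and -0.01. Lhfpl3, a tetraspan membrane protein of precursors, went with the mature genes at 0.53, a smaller difference than in any of them but Cryab (0.51).

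Genes of the committed stage were divided. Gpr17, a receptor that marks cells about to differentiate, read 8.95, 8.82, 9.08 and 8.64 on IMO arrays and 9.29, 9.12, 8.69 and 9.20 on No stress arrays, with neither array 1 nor array 6 at the top. Neu4, a sialidase, had a pair difference of 0.02. Enpp6, a choline phosphodiesterase of newly forming oligodendrocytes, read 7.41, 6.56, 7.26 and 6.65 against 7.47, 7.68, 7.05 and 6.96. Its array 6 was highest, and arrays 2 and 4 were lowest as in Mog and Mag. Bmp4, a signalling ligand of committed precursors, had a pair difference of 0.55 with array 1 at 7.58 and the other arrays at 6.58 to 7.23.

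Both tested lineage transcription factors were highest on the pair. Olig1 read 12.28, 11.74, 11.74 and 11.70 on IMO arrays and 11.81, 12.09, 11.65 and 11.65 on No stress arrays. Outside the pair its 6 signals differed by no more than 0.16, while the pair stood 0.47 higher. Sox10, which switches on myelin genes together with Myrf, read 9.71, 8.82, 8.93 and 9.03 against 9.20, 9.77, 9.14 and 9.03, a pair difference of 0.72. In all, the pair was highest in 4 of 10 tested precursor members (Olig1, Sox10, Bmp4 and Lhfpl3) beside 15 of 15 mature ones and 7.57% of all tested probes. The median pair difference was 0.28 for precursor and 1.32 for mature members, beside -0.01 for all tested probes. The precursor members as a list thus also stood higher on the pair than all tested probes, which was not tested.

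**Figure D2:**
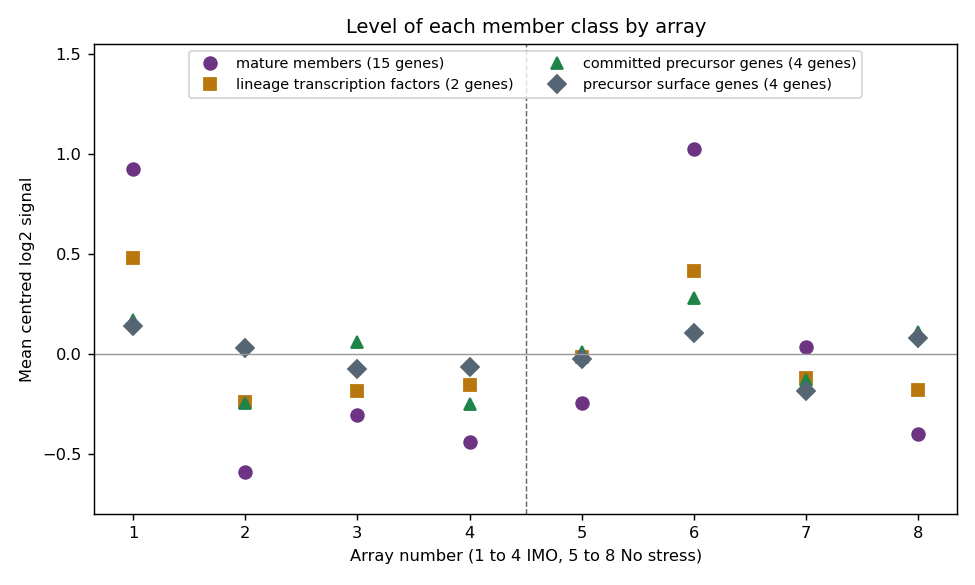
Mean centred log2 signal of 4 member classes on each array (arrays 1 to 4 IMO, 5 to 8 No stress, divided by the dashed line; each point is a mean over the tested genes of the class). Mature genes reach 0.93 and 1.02 on arrays 1 and 6, the lineage transcription factors 0.48 and 0.41, and the precursor surface genes stay between -0.19 and 0.14 on all 8 arrays.

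Array by array the levels were as follows. The mature level was 0.93, -0.59, -0.31 and -0.44 on IMO arrays 1 to 4 and -0.25, 1.02, 0.04 and -0.40 on No stress arrays 5 to 8. The precursor level was 0.22, -0.13, -0.04 and -0.16, then -0.01, 0.24, -0.15 and 0.04. Both were highest on arrays 1 and 6, over a span several times wider for the mature genes. Away from the pair they parted: array 7 had the highest signal of the other 6 in 13 of 15 mature members and in 0 of 10 precursor members, against 21.3% of all tested probes. Array 2 was the lowest of the 6 in 7 mature and 3 precursor members, against 14.5% of all tested probes. The median SD over those 6 arrays was 0.281 for mature and 0.181 for precursor members, beside 0.149 for all tested probes, and over 8 arrays it was 0.684, 0.235 and 0.161.

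Promoter windows are shown for a pair of mature genes, Opalin and Mog, and for Pdgfra, the receptor that defines precursors, as examples with and without the motifs searched. They were chosen after these values were seen, and other members differ more in signal. Each window runs from 250 bases before to 50 bases after an annotated start (RefSeq, GRCm38.p6, written 5′ to 3′ on the gene's strand), and windows were found for 20 of the 30 members. Capitals mark the letters searched on both strands: the Sox core ACAAAG, the Myrf core in its forms CTGGCAC and CTGGTAC, and the E-box CAGCTG. None of these motifs overlapped in the windows shown.
Opalin, chr19:41077064-41077363, minus strand: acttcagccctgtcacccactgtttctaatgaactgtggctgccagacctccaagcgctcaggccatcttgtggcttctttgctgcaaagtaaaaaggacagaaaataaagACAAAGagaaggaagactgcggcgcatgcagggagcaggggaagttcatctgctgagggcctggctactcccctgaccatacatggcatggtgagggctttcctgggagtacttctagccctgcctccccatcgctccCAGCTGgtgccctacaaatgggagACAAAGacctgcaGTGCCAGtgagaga
Mog, chr17:37023349-37023648, minus strand: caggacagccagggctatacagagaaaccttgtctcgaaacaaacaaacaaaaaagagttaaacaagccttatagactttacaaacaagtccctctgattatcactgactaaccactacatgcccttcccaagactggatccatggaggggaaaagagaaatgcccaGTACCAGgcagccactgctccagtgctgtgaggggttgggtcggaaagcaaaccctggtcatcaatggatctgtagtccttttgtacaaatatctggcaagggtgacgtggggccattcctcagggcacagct
Pdgfra, chr5:75152001-75152300, plus strand: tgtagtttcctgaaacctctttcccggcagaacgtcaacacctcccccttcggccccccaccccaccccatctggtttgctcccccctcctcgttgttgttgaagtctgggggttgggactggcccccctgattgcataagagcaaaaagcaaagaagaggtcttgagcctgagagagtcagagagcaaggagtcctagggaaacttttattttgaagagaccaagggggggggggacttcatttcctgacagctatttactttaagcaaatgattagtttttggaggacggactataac

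The Opalin window held 2 Sox cores, 1 Myrf core and 1 CAGCTG E-box, the Mog window 1 Myrf core, and the Pdgfra window none of these letters. Over all windows of the members, the Sox core was present in 6 of 16 mature and 0 of 9 precursor windows, against 18.7% of all 32851 windows of the same length. The Myrf core was present as CTGGCAC in 4 of 16 mature windows and as CTGGTAC in 1, against 5.01% and 2.24% of all windows, and in 0 of 9 precursor windows in either form. The CAGCTG E-box was present in 5 mature and 2 precursor windows, against 16.3% of all. Mag and Gsn have 3 windows each and Matn4 has 2, so the windows are not independent, and a match in letters is not a bound site.

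The main comparison asked whether these genes differed 6 days after stress. No member passed: by limma 0 of 25 members had an adjusted p under 0.05 over all tested probes (0% of all tested probes). An unadjusted limma p was under 0.05 in 0 of 25 (10.6% of all). The groups fell apart without overlap in 0 of 25, against 3.56% of all tested probes with IMO lower and 3.36% with IMO higher. In 19 of 25 members arrays 1 and 6, 1 of each group, were both highest. Groups of these members had to overlap, so the count of groups without overlap could not show a difference in them. The pair also widened the standard errors of mature members (median 0.387 with it, 0.148 without it). The 2 counts of p-values on 8 arrays could therefore show only large differences in the mature members. Mean signal was lower in the IMO group in 14 of 15 mature members, with Trf the exception at 0.06, and in 6 of 10 precursor members. It was lower in 49.8% of all tested probes. The mature members move together over the arrays, so these genes are not independent. The median log2 difference, IMO minus No stress, was -0.22 for mature and -0.06 for precursor members, beside 0.0009 for all tested probes. The mature median shifted with single arrays of the pair: it was -0.56 without array 1 and 0.06, of the opposite sign, without array 6. Either omission leaves a high array in 1 group only, so the direction of these shifts was set by the pair. The median was -0.23 without both arrays. With any other single array left out it stayed negative, from -0.36 (without array 8) to -0.06 (without array 2).

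Mal was at 8.67 ± 0.84 (SD, n = 4) in IMO and 9.14 ± 0.72 (SD, n = 4) in No stress samples. That is a log2 difference of -0.47 (standard error 0.421, limma adjusted p 0.74, 95% interval -1.40 to 0.46). Opalin was at 7.97 ± 0.60 (SD, n = 4) and 8.44 ± 0.76 (SD, n = 4), or -0.47 on the log2 scale (standard error 0.372, limma adjusted p 0.704). Differences of Mag (-0.37), Mog (-0.36), Cldn11 (-0.28), Cnp (-0.26) and Mbp (-0.24) had standard errors of 0.324 to 0.457, larger than the differences. Those of Car2 (-0.22), Cryab (-0.16), Fa2h (-0.10), Ugt8a (-0.09), Mobp (-0.08), Aspa (-0.04) and Evi2a (-0.01) did not exceed their standard errors either. The median standard error was 0.387 for mature and 0.145 for precursor members, beside 0.108 for all tested probes.

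**Figure D3:**
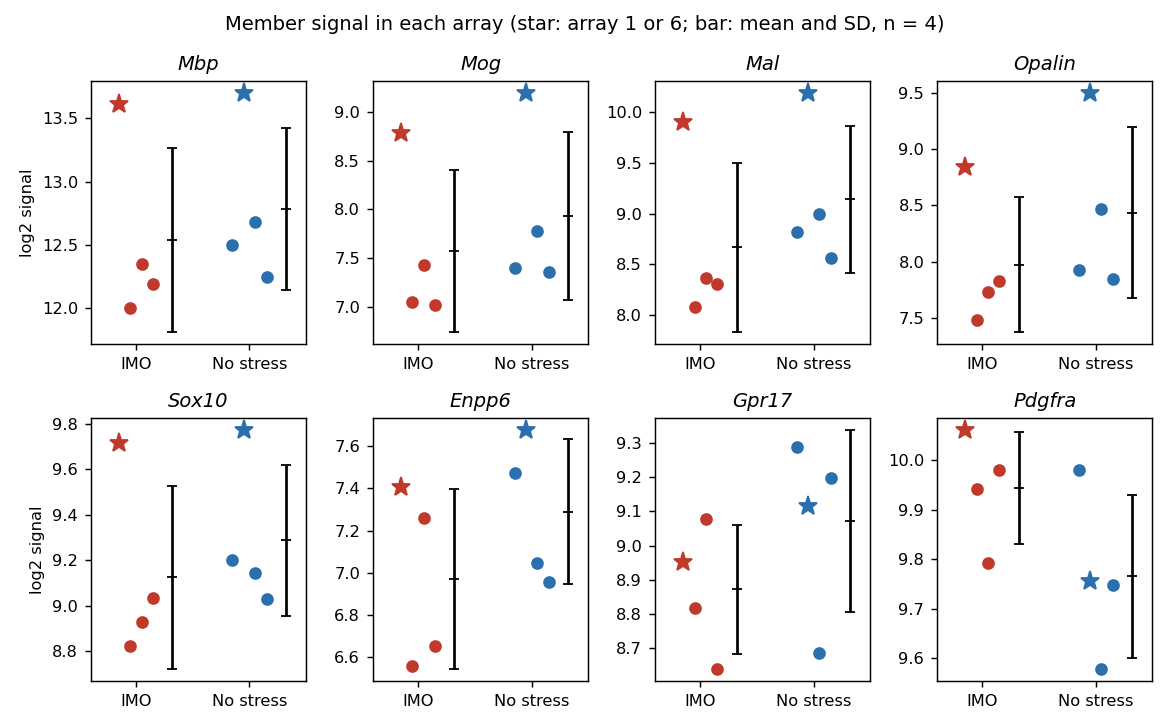
Log2 signal of 4 mature genes (top row) and 4 precursor-list genes (bottom row) on each array, by group; stars are arrays 1 and 6, circles the other arrays, and the black bar is the mean with its SD (n = 4). In Mbp, Mog, Mal, Opalin and Sox10 the stars lie above all circles, whereas in Gpr17 they lie among them; the vertical axes do not start at 0 and differ between panels.

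Among the precursor members Pdgfra had the smallest p. It was at 9.94 ± 0.11 (SD, n = 4) in IMO and 9.77 ± 0.16 (SD, n = 4) in No stress samples. This difference of 0.18 (standard error 0.103, limma adjusted p 0.581) had a 95% interval from -0.05 to 0.41. The groups overlapped because No stress array 5 lay above IMO arrays 2, 3 and 4. Enpp6 was at -0.32 with a standard error of 0.217 (limma adjusted p 0.643) and Gpr17 at -0.20 with one of 0.142 (limma adjusted p 0.66). The remaining members lay between -0.16 and 0.07: Sox10 at -0.16, Lhfpl3 at -0.14, Bmp4 at -0.07, Matn4 at -0.05, Neu4 at 0.05, Olig1 at 0.07 and Cspg4 at 0.07.

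Without arrays 1 and 6 the standard errors of all 15 mature members fell. By limma 0 of 25 members had an adjusted p under 0.05 (0.00487% of all tested probes), and 4 of 25, all mature, had an unadjusted p under 0.05, against 11.5% of all tested probes. These were Mal (-0.54, standard error 0.132), Mag (-0.53, 0.170), Opalin (-0.40, 0.169) and Mog (-0.35, 0.150), with limma adjusted p of 0.285, 0.336, 0.416 and 0.423. The 3 IMO arrays lay below the 3 No stress arrays without overlap in Mal, Opalin and Lhfpl3, that is 3 of 25 members against 8.93% of all tested probes, and above them in 0 of 25 against 9.38%. These shares are near those of all tested probes. The median difference was -0.23 for mature members (13 of 15 lower) and -0.07 for precursor members (5 of 10 lower), where 48.9% of all tested probes were lower. Median standard errors were 0.148 and 0.131.

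On these 6 arrays Trf and Evi2a were at 0.008 and 0.04, with standard errors of 0.104 and 0.115. Ugt8a (-0.07), Aspa (-0.08) and Mobp (-0.15) were nearer 0 than Mal and Mag, a contrast between genes that was not tested. Sox10 was at -0.20, Gpr17 at -0.21, Bmp4 at -0.21 and Enpp6 at -0.34, and on the other side Neu4 was at 0.19 and Pdgfra at 0.14. All of these had limma adjusted p of 0.491 or more.

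**Figure D4:**
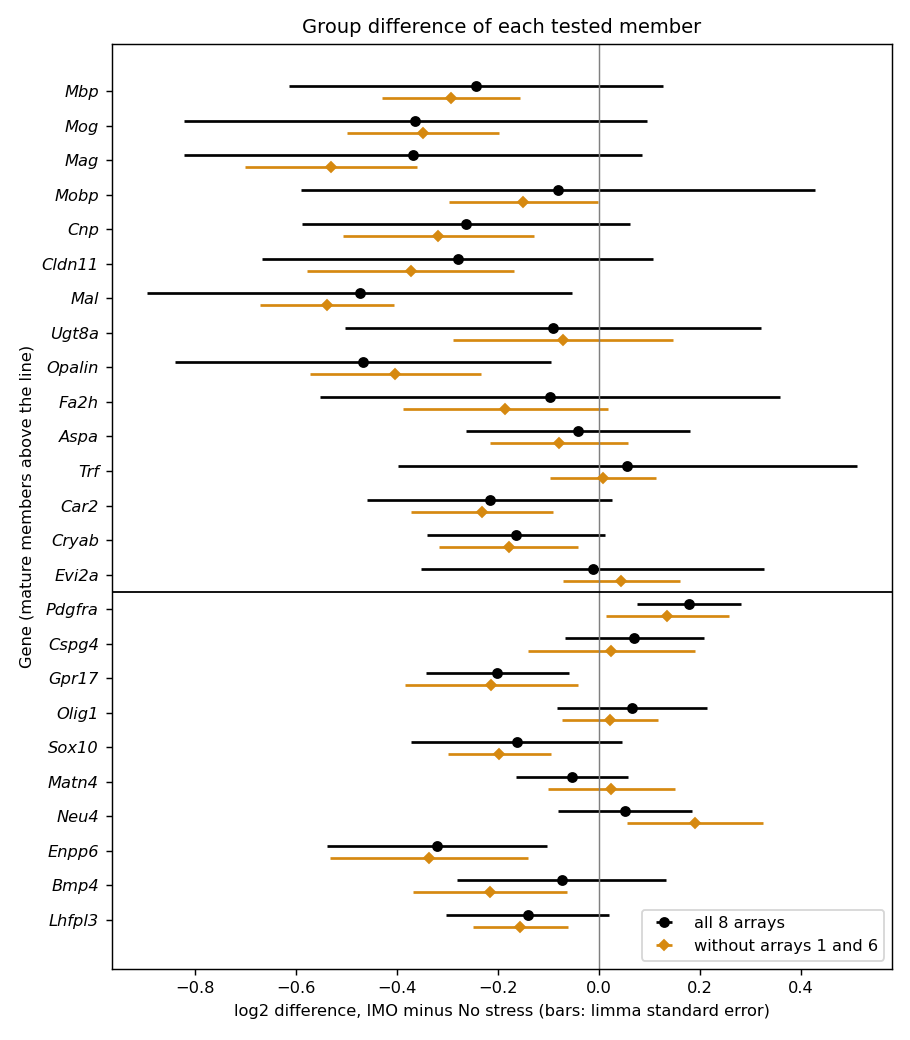
Log2 difference, IMO minus No stress, of each tested member with its limma standard error, from all 8 arrays (black circles, n = 4 and 4) and without arrays 1 and 6 (orange diamonds, n = 3 and 3). Mature genes are above the line; 14 of 15 black circles lie left of 0 there, and the bars of these genes shorten when the pair is left out.

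The 25 genes had 42 tested probes, and probes of a gene did not always share the sign of the group difference. The dimmer Mog probe was at -0.08, the dimmer Mal probe also at -0.08 and the dimmer Cnp probe at -0.08, each nearer 0 than the brightest probe of the gene. Dimmer Mobp probes were at -0.02, 0.11 and 0.12, the last 2 of opposite sign to the brightest. The Mbp probe ILMN_1227299, at 0.07, the second Aspa probe, at 0.01, and a dimmer Lhfpl3 probe, at 0.05, also had the opposite sign. Evi2a was at -0.01 on its brightest probe and -0.33 on the other, and without the pair at 0.04 and -0.26. Of the dimmer probes only that of Matn4, ILMN_2913500, had groups that did not overlap on 8 arrays (6.48 to 6.56 on IMO and 6.65 to 6.80 on No stress arrays), with a difference of -0.18 and a limma adjusted p of 0.447; the 2 other Matn4 probes were at -0.05 and 0.07. The second Aspa probe did not follow the pair (-0.04), and the dimmer Neu4 probes were at -0.03 and -0.09 for the group difference.

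One Mbp probe ran against the others. The Mbp locus makes the classic myelin basic proteins and, from a start site further upstream, golli transcripts that neurons and immune cells also contain. Probe ILMN_3011353 read 8.30, 9.60, 9.64 and 9.77 on IMO arrays and 9.61, 9.10, 9.43 and 9.40 on No stress arrays. It was lowest on arrays 1 and 6, where the brightest Mbp probe was highest, and the pair stood 0.87 below the other 6 arrays. Probe ILMN_3081854, which the annotation ties to the same transcript record, was 2.08 above them there, and ILMN_1227299 1.12 above. Which transcript each probe reads was not tested. Between the groups ILMN_3011353 differed by -0.06 (standard error 0.280, limma adjusted p 0.966), and by 0.19 without the pair.

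**Figure D5:**
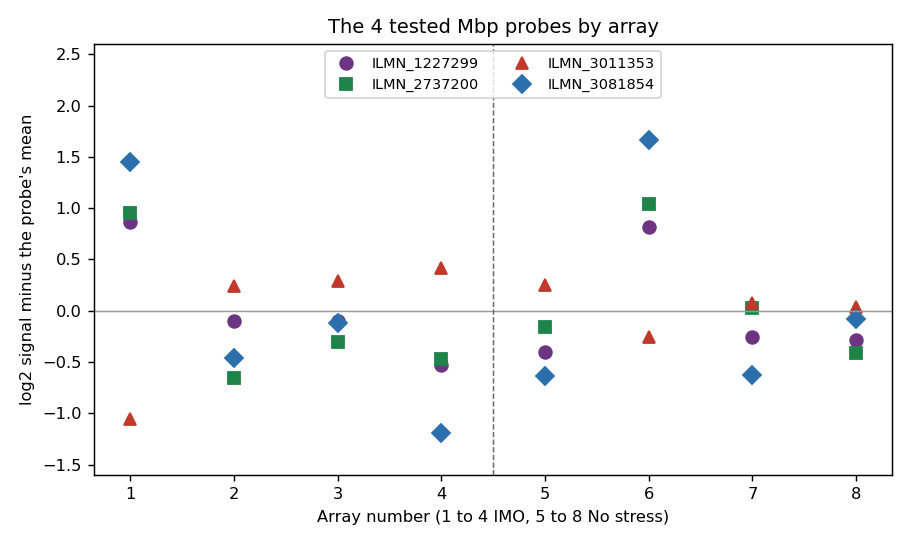
Log2 signal of the 4 tested Mbp probes on each array, centred on each probe's own mean (arrays 1 to 4 IMO, 5 to 8 No stress, divided by the dashed line). Probe ILMN_3011353 (red triangles) is lowest on arrays 1 and 6, where the other 3 probes are highest.

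Members that could not be tested were Ermn, a cytoskeletal protein of late oligodendrocytes (1 probe, detected on 0 arrays), Gsn, the actin-severing protein gelsolin (2 probes, 0 arrays), Olig2 (detected on 2 arrays, 5.55 to 6.13) and C1ql1, a secreted C1q-like protein of precursors (detected on 1 array, 5.62 to 6.15). Apod, a lipid carrier, was not analysed here because no probe was paired with it in the annotation used.

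Further genes of the lineage came from lists that share no gene with the members. Of 30 other mature oligodendrocyte genes 19 were tested. Mean signal in the IMO group was lower in 16 and higher in 3, where 49.8% of all tested probes were lower. Their median difference was -0.10, with 0 adjusted p under 0.05 by limma. The pair was highest in 13 of these 19. The genes of smallest p were Sirt2, a deacetylase abundant in myelin (-0.15, limma adjusted p 0.616), and Lpar1, a lysophosphatidic acid receptor (-0.36, limma adjusted p 0.623). Of 19 other precursor and newly forming genes 14 were tested; 5 had lower and 9 higher mean signal, the median was 0.15, and 0 passed. There the genes of smallest p were Tnr, a matrix glycoprotein (0.40, limma adjusted p 0.334), and Nfasc, an adhesion protein that neurons make at nodes (0.29, limma adjusted p 0.351). The groups did not overlap in Nfasc, with IMO higher (3.36% of all tested probes), and overlapped in Tnr. The pair was highest in 3 of the 14, among them Bcas1, a gene of newly forming myelin named here after its values were seen, with a pair difference of 1.13.

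Genes that feed or steer the lineage were higher in some cases and lower in others. Of 14 genes of cholesterol synthesis and uptake 9 were tested, 5 lower and 4 higher, and the pair was highest in 0 of them. Insig1, which holds back sterol synthesis, was at -0.39 (limma adjusted p 0.352) and the sterol regulator Srebf2 at 0.33 (limma adjusted p 0.489). Of 20 signals and regulators of oligodendrocyte development 14 were tested, 8 lower and 6 higher, with 0 past the threshold by limma, and the pair was highest in 2 of them. Pdgfa, the ligand of Pdgfra, was at 0.20 with IMO higher and no overlap, as in 3.36% of all tested probes (limma adjusted p 0.418), and Id4, an inhibitor of differentiation, at -0.47 (limma adjusted p 0.433). Unadjusted p was under 0.05 for 0 of 19, 3 of 14, 1 of 9 and 3 of 14 tested genes of these 4 lists in turn, against 10.6% of all tested probes.

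Markers of other cells moved with some of these results. On arrays 1 and 6 the mature level stood 1.30 above that of the other 6 arrays. The choroid plexus level stood 0.34 above there, mural and meningeal 0.33, astrocyte 0.32, neuronal 0.26 and endothelial 0.18. Of the choroid plexus markers only Clic6 was higher on the pair (2.08), with Ttr at -0.59, Kl at -0.07 and Aqp1 at -0.06. The pair was highest in 2 of 12 mural and meningeal markers and in 0 of 9 endothelial markers. Blood (0.05) and microglial (-0.03) levels differed little. Astrocyte and neuronal levels were, like the mature level, highest on arrays 1 and 6, but their single genes were mixed. The pair was highest in 5 of 12 astrocyte markers, with pair differences from -0.06 for Sox9 to 1.10 for Gfap. It was highest in 2 of 6 neuronal markers, the GABAergic genes Gad2 (1.06) and Gad1 (0.60). Rbfox3 was at 0.14, Map2 at -0.02, and Stmn2 and Syt1 at -0.11. Without the pair, the mature level differed by -0.24 between the groups. Over the same arrays endothelial markers differed by -0.35 (9 of 9 lower), blood markers by -0.63 (8 of 8 lower) and choroid plexus markers by -0.76 (4 of 4 lower). Mural and meningeal markers differed by -0.25 (10 of 12 lower), microglial markers by -0.13 (7 of 10 lower) and astrocyte markers by -0.10 (8 of 12 lower). Neuronal markers differed by 0.11 (1 of 6 lower). Of all tested probes 48.9% were lower on these arrays. The choroid plexus difference between the groups on these arrays rested mostly on Ttr (-2.05) and Clic6 (-0.82), with Aqp1 at -0.14 and Kl at -0.02. On all 8 arrays the level of endothelial markers ran from -0.35 to 0.23 in IMO and from 0.02 to 0.33 in No stress samples, the mural and meningeal level from -0.59 to 0.32 and from -0.33 to 0.33, and that of astrocyte markers from -0.29 to 0.32 and from -0.32 to 0.17. Blood markers ran from -0.64 to 0.11 and from -0.08 to 0.68, choroid plexus markers from -0.86 to 0.11 and from -0.33 to 0.62, microglial markers from -0.08 to -0.01 and from -0.06 to 0.14, and neuronal markers from -0.05 to 0.25 and from -0.14 to 0.13. Markers without a tested probe included Lef1, Adora2a, Foxp2, Kdr, Itgam, Snap25, Nefl, Folr1 and Prlr. Tcf7l2 stands in both the precursor and the subcortical list, and Fgfr3 in both the signal and the astrocyte list. Of Schwann cell genes, which mark peripheral myelin, Pmp22 alone was tested. The part of these cells, and of the forebrain regions beneath the cortex, in the values of the members was not tested.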

How the data were processed

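Both tables the authors deposited hold linear probe intensity, already brought to nearly one distribution across arrays. The second was nonetheless deposited under a name that calls it non-normalized. The software and the normalization are not named in the labels. Biotin-labelled cRNA was made with the Ambion MessageAmp kit, per the labels' protocols. Detection p-values are deposited beside the second table, but they fell steadily with signal only in the value table (0% rising steps per array, against 33.4% to 36.8%), so the value table was analysed.

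From it, log2 signal was taken with no offset and no further normalization. The fit took probes whose detection p was below 0.05 on 4 or more arrays and used limma 3.58.1 (lmFit, eBayes; R 4.3.3), two-sided, with p-values adjusted by Benjamini-Hochberg over 20531 probes. Genes were named through the platform annotation (34885 probes with 1 symbol, 18 with several, 10378 unnamed here; 0 symbols changed by Entrez ID) and represented by their brightest tested probe. A level is the mean over a list's tested genes of log2 signal centred on each gene's 8-array mean. The number of arrays limits the precision (median standard error 0.108). The fit was tested on simulated data.

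All members were accounted for; of each further lineage list the 2 genes of smallest p were named. Marker lists are given as levels. Prkcd, Zic1, Drd1, Slc17a6, Bcas1, Cux2, Fezf2, Bcl11b, Nr4a2, Sox9, Gfap and the tested choroid plexus and neuronal markers were named after their values were seen. The members, the lists and the pair of arrays were chosen with earlier results of these data known, so counts over them are not independent support. Alternatives covered the second table, the detection filter, background correction, offset, scaling, cyclic loess, variance model, array weights (statmod 1.5.0), probe averaging and arrays left out. Some items are not reported here.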

Additional observations from a re-analysis of the deposited data

Results flagged for a closer look

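In groups of 4 arrays, a single array lay far from the others (gap to the nearest over the group's range above Dixon's critical value) in 10 of the 54 groups examined. Chance flags about 1 in 20 groups, but the members move together, so these groups are not independent. Arrays 1 and 6 had also been singled out with values of these data known. The count is therefore a description, and no excess over chance is read from it. In the IMO group it was array 1 each time, at a log2 signal of 11.18 for Mobp, 9.91 for Mal, 10.86 for Trf, 8.92 for Car2, 9.03 for Evi2a, 12.28 for Olig1, 7.58 for Bmp4 and 7.42 for Lhfpl3. In the No stress group it was array 6, at 10.59 for Mag and 10.65 for Trf. All of these were the highest value of their group. Trf was the only member with such an array in both groups.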

How the results depend on the processing

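Under all 11 settings other than leaving out 1 array, and with each single array left out, 0 members had an adjusted p under 0.05 by limma. The median difference of mature members ran from -0.29 (second table) to -0.16 (no detection filter) over these settings and that of precursor members from -0.14 (array weights) to -0.02 (no detection filter). Single arrays moved the mature median more: it was -0.56 without array 1 and 0.06 without array 6, which turns its direction, -0.36 without array 8, -0.15 without array 3, -0.13 without array 4 and -0.06 without array 2. Arrays 1 and 6 are the high pair, so leaving out only 1 of them leaves a high array in 1 group only. Without both, the mature median was -0.23. The precursor median ran from -0.15 without array 1 to -0.0003 without array 8, and the mature minus precursor difference from -0.41 (without array 1) to 0.06 (without array 6), with -0.15 on all arrays.

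Members whose sign turned with 1 array left out had these ranges: Mbp -0.60 to 0.0632, Mog -0.77 to 0.059, Mobp -0.58 to 0.35, Ugt8a -0.43 to 0.27, Fa2h -0.54 to 0.26, Aspa -0.24 to 0.12, Trf -0.39 to 0.45, Evi2a -0.29 to 0.32, Cspg4 -0.023 to 0.18, Olig1 -0.074 to 0.16, Matn4 -0.13 to 0.0213, Neu4 -0.0292 to 0.13 and Bmp4 -0.28 to 0.0091. In each of these mature members, Mbp to Evi2a, the low end came without array 1 and the high end without array 6. Each such omission leaves a high array in 1 group only. Without both arrays the differences of these mature members ran from -0.35 (Mog) to 0.0445 (Evi2a). In the second table the sign turned for Trf (-0.29), Car2 (0.26), Cspg4 (-0.17), Gpr17 (0.0452), Olig1 (-0.21), Matn4 (0.19), Neu4 (-0.10) and Enpp6 (0.11). It turned for Mobp (0.0321) and Neu4 (-0.0232) with a gene's probes averaged, for Trf (-0.0687) with array weights, and for Evi2a (0.0445) and Matn4 (0.0248) without the pair; the cause was not tested. No paired analysis was possible because the groups share no replicate numbers.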

Other observations

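The second deposited table, under the same sample names, placed its high arrays elsewhere. Its mature level was -0.16, 0.30, -0.22 and -0.37 on the arrays named 1 to 4 and 0.80, 0.21, -0.49 and -0.09 on those named 5 to 8, with array 5 highest. Array 5 also had the highest Prkcd (9.80), Zic1 (11.70) and Mog (8.68) signals, and array 6 had Prkcd at 8.58, Zic1 at 10.99 and Mog at 8.05. Array 3 had Prkcd at 9.42 and Zic1 at 10.13, with the lowest Mog signal of the 8 arrays at 6.65. Array 3 was highest in Enpp6 (8.30), Bmp4 (8.17), Car2 (9.63) and Pdgfra (10.32). Mbp probe ILMN_3011353 was again lowest, at 7.95 and 9.03, on arrays 6 and 5, on which the brightest Mbp probe read 13.14 and 13.73. Array 2, with the brightest Mbp probe at 13.19, had ILMN_3011353 at 9.58.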
